A study of Mus musculus with 2 samples.

Results

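The collagen chain genes encode the alpha chains from which all collagens are built, and they were taken here as every symbol in the deposited gene list made of Col, a number, the letter a and a number, with at least 20 unique molecular identifiers (UMIs, each the mark of 1 captured RNA molecule) over both libraries. There were 44 such symbols, and all 44 met the limit, of 26939 genes in the list that did. All 44 were found by their Ensembl identifier in the GENCODE vM39 annotation of the mouse genome (GRCm39), on 15 chromosomes. By the structure their protein takes, 11 were classed as fibrillar, 6 as basement membrane, 6 as beaded filament, 9 as FACIT (fibril-associated collagens with interrupted triple helices), 2 as multiplexin, 4 as anchoring and short network, 4 as transmembrane and 2 as other chains.

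The study applied single-nucleus RNA sequencing (snRNA-seq) to mouse adipose tissue of different depots and ages, and the libraries described here are those of visceral adipose tissue (VAT) from the gonadal depot of young animals. The 2 libraries, called replicate 1 and replicate 2, come from 1 animal each, female C57BL/6J mice aged 2 months, with no treatment and no transgene in the labels. The libraries of aged mice and of subcutaneous tissue were not analysed, so the values carry no comparison of age or depot. The labels conflict with each other, since the description names 10x Genomics and the cell type field names adipocytes, while the protocol describes nuclei of whole tissue loaded on the GEXSCOPE system of Singleron.

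The deposited matrices hold whole UMI counts of 7344 called nuclei in replicate 1 and 17148 in replicate 2. Nuclei were kept above 500 genes and 1000 UMIs and below a mitochondrial share of 15%, which left 2833 nuclei with 8466237 UMIs in replicate 1 and 12225 nuclei with 48068273 UMIs in replicate 2. The number of nuclei left is higher than the number the study states after its filters. The kept nuclei had a median of 2221 and 2726 UMIs, a median of 1150 and 1527 genes and a median mitochondrial share of 6.20% and 0.621% in replicates 1 and 2, so the libraries stood apart in depth and in mitochondrial share. Of the called barcodes, 85 occurred in both libraries, and 27 of the kept ones did. Pairs of values below give replicate 1 and then replicate 2.

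The kept nuclei formed clusters that were named from marker genes among which no collagen chain was used, and they are called by the type whose markers they hold. Adipocyte-like nuclei numbered 1973 and 6918, FAP-like nuclei (fibro-adipogenic progenitors, the stromal cells from which new adipocytes arise) 251 and 1310, mesothelial-like nuclei (the covering layer of the depot) 246 and 2163, endothelial-like nuclei 85 and 498, mural-like nuclei (pericytes and smooth muscle of vessels) 23 and 170, and immune-like nuclei 255 and 1166. The share of adipocyte-like nuclei was 69.6% (67.9 to 71.3%) in replicate 1 and 56.6% (55.7 to 57.5%) in replicate 2. Intervals printed with shares are at 95% by the exact method of Clopper and Pearson and hold counting error alone. The cell type label therefore holds, by these names, for most nuclei and not for all, and the tissue label is borne by adipocyte, stromal and mesothelial markers. Without adipocyte-like subcluster 2, described below, adipocyte-like nuclei made up 57.3% and 39.3% of the kept nuclei. The 9 adipocyte markers summed to 8103 and 6665 CPM (UMIs of a gene per 1000000 UMIs of that group of nuclei) in adipocyte-like nuclei, the 8 FAP markers to 14737 and 8221 CPM in FAP-like nuclei, and the 9 mesothelial markers to 4142 and 3092 CPM in mesothelial-like nuclei. The 8 FAP markers also reached 7517 and 4425 CPM in mesothelial-like nuclei, led by Dcn at 6543 and 3314 CPM, while the mesothelial markers stayed at 183 and 270 CPM in FAP-like nuclei. The blood endothelial markers summed to 5770 and 4292 CPM in endothelial-like nuclei, the mural markers to 10568 and 5602 CPM in mural-like nuclei and the macrophage markers to 9059 and 8496 CPM in immune-like nuclei.

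Collagens are trimers of alpha chains wound into a triple helix, and each class of chain builds a different structure. Fibrillar collagens assemble into the banded fibrils that give tissue its tensile strength, while the type IV chains form the sheet-like network of basement membranes, and in fat every adipocyte and every capillary is wrapped in such a membrane. Type VI collagen forms beaded filaments around adipocytes and is abundant in adipose tissue, FACITs sit on the surface of fibrils, and the multiplexins lie in and next to basement membranes. A chain can be secreted only within a trimer, so the partners of a trimer are of interest side by side. Expansion of fat is accompanied by remodelling of this matrix, and stromal cells are the usual source of its fibrils.

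The 44 chains held 125670 UMIs in the kept nuclei, and the 4 most counted, Col3a1, Col15a1, Col4a2 and Col4a1, held 49.7% of them. The UMIs of all chains made up 0.819% and 0.580% of all UMIs in FAP-like nuclei, 0.483% and 0.497% in mesothelial-like, 0.389% and 0.363% in mural-like, 0.208% and 0.211% in endothelial-like, 0.184% and 0.146% in adipocyte-like and 0.101% and 0.127% in immune-like nuclei. The order of the 6 groups was thus the same in both libraries. Because adipocyte-like nuclei were many, they held most UMIs of some chains whose level was higher elsewhere or similar, among them 76.2% of those of Col4a1 and 82.1% of those of Col4a2.

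**Figure D1:**
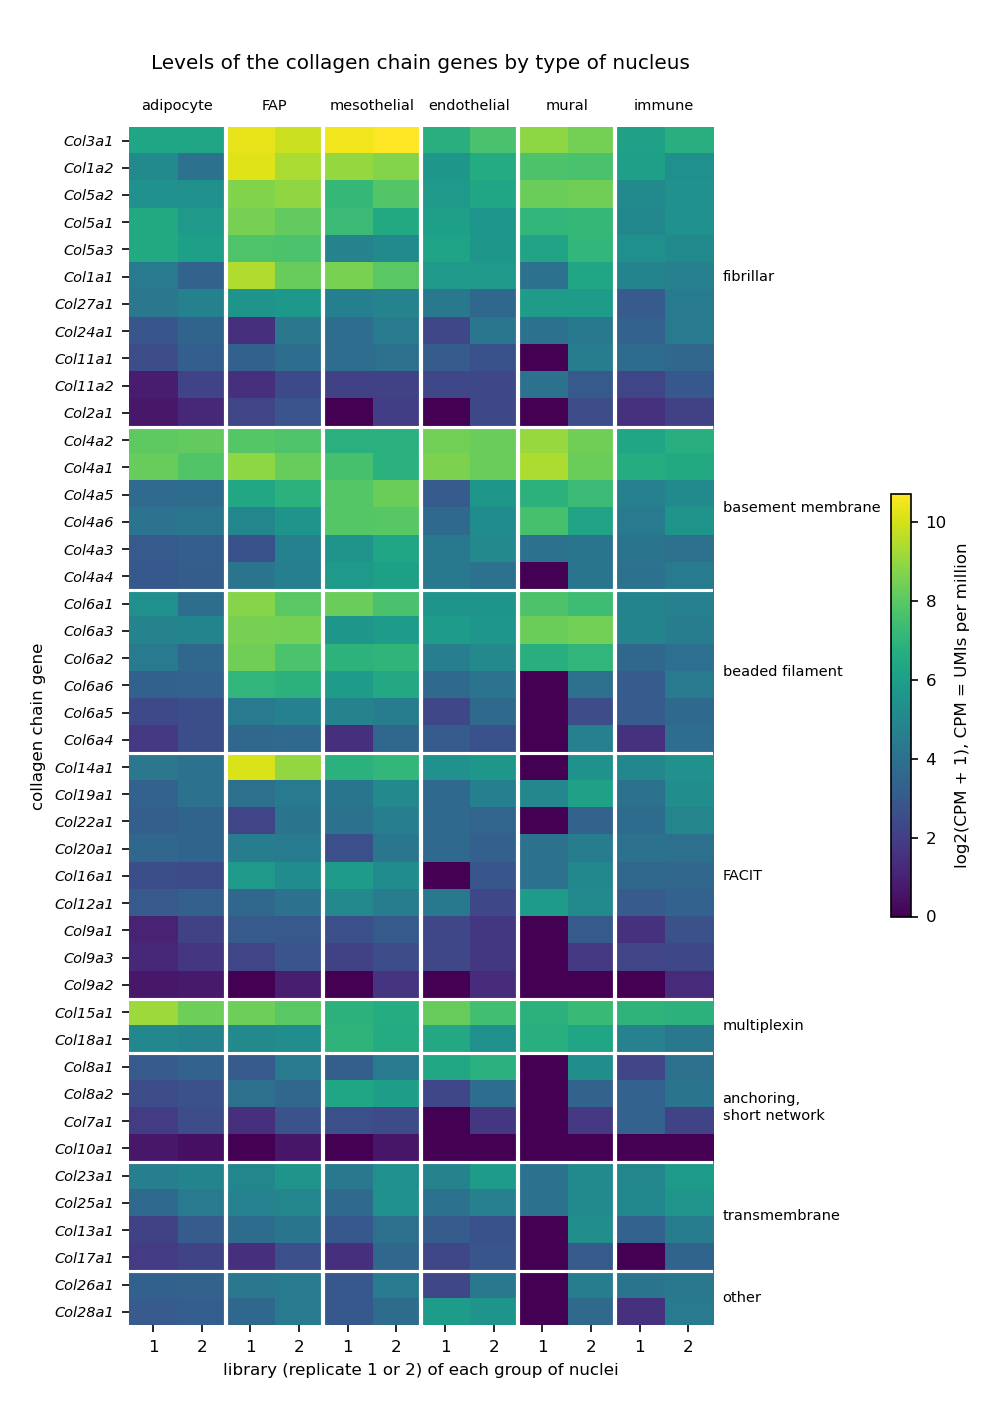
Levels of the 44 collagen chain genes (rows, grouped by class and ordered by UMIs) in 6 types of nucleus (column pairs, replicate 1 on the left), as log2 of CPM plus 1 by colour. Most fibrillar and beaded filament chains are brightest in the FAP, mesothelial and mural columns, Col4a1, Col4a2 and Col15a1 are bright in the adipocyte and endothelial columns too, and the mural column of replicate 1 rests on 23 nuclei.

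To ask which chains set a type of nucleus apart, UMIs were summed per library and type, and each type was set against the average of the log levels of the 5 others by edgeR's quasi-likelihood F test with the library as a block. A gene was called higher or lower at an adjusted p under 0.05 (Benjamini-Hochberg over the 13889 genes tested) when it differed by log2 1 or more in that direction. Counts given at an unadjusted p keep the same limit on the fold. Of the 44 chains, 36 passed the filter on low counts and were tested. The 8 not tested (Col17a1, Col7a1, Col9a1, Col11a2, Col9a3, Col2a1, Col9a2 and Col10a1) had 22 to 259 UMIs in all and reached at most 15 CPM in any type in replicate 1 and 10.6 CPM in replicate 2. Without that filter all 44 chains were tested, and none of these 8 was called higher in any type by edgeR.

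In FAP-like nuclei 14 chains were called higher, against 7.29% of all genes tested, and none was called lower (0 by edgeR, 0 at an unadjusted p under 0.05 and 0 by DESeq2), against 3.37%. In mesothelial-like nuclei 15 were called higher, against 9.17% of all genes, and 3 lower, against 2.49%. In mural-like nuclei 8 were called higher, against 4.28% of all genes, and 1 lower, against 2.11%. That count of 8 fell to 3 without the library as a block. It fell to 5 without the filter on low counts and under other alternatives given in the closing section. In these 3 types the chains were thus called higher at a larger share than all genes tested, while a chain counted in 1 type alone passes the filter more readily when it differs. In endothelial-like nuclei 2 were called higher, against 6.39% of all genes, which is near that share, and 8 lower, against 2.15%. In adipocyte-like nuclei 1 was called higher, against 8.98%, and 17 lower, against 18.6%. In immune-like nuclei none was called higher (0 by edgeR, 0 at an unadjusted p under 0.05 and 0 by DESeq2), against 11.2%, and 14 lower, against 5.65%. In replicate 1 alone, without replicate 2, 2 chains in adipocyte-like, 5 in endothelial-like and 5 in immune-like nuclei were higher by log2 1 or more, and in replicate 2 alone 1, 2 and 1 were, values that carry no test. The median log2 fold change over the tested chains was 0.53 in FAP-like, 0.64 in mesothelial-like and 0.53 in mural-like nuclei, against -0.05, 0.01 and -0.14 over all genes. It was -0.90 in adipocyte-like, -0.64 in endothelial-like and -0.73 in immune-like nuclei, against -0.07, -0.05 and 0.06.

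These 40 calls fell on 25 chains, of which 12 were called higher in 1 type, 11 in 2 types and 2 (Col6a1 and Col6a2) in 3 types. The same split is not given for all genes tested, so it describes the chains without a comparison. Each comparison uses the nuclei of the other types too, so the comparisons share their values and calls in 2 types do not support each other. On this log scale all 40 were higher in 2 of 2 libraries, by log2 1 or more in each library alone for 36. The 11 tested chains called higher in no type by the main test were Col4a1 and Col4a2, described below, and Col23a1, Col25a1, Col22a1, Col26a1, Col20a1, Col24a1, Col13a1, Col11a1 and Col6a4, which lay between 0 and 31.6 CPM over the 6 types in replicate 1 and between 5.02 and 59.9 CPM in replicate 2.

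Among the fibrillar chains, 7 of the 9 tested were called higher in FAP-like nuclei, 3 in mesothelial-like and 2 in mural-like nuclei. Col3a1, the chain of type III collagen that forms fine reticular fibrils, stood at 1344 and 945 CPM in FAP-like and at 1451 and 1704 CPM in mesothelial-like nuclei. It was at 480 and 356 CPM in mural-like, 108 and 198 in endothelial-like, 79.4 and 81.5 in adipocyte-like and 68.7 and 106 in immune-like nuclei. Its values in FAP-like and mesothelial-like nuclei thus lay above those of every other type in both libraries. The log2 fold change against the mean of the other types was 2.28 (standard error, SE, 0.16, adjusted p 7.4e-18) in FAP-like and 2.84 (SE 0.15, adjusted p 1.5e-22) in mesothelial-like nuclei, each higher in 2 of 2 libraries. The direct difference between these types, FAP-like minus mesothelial-like, was a log2 fold of -0.47 (SE 0.22) and did not pass (adjusted p 0.183). In adipocyte-like minus immune-like nuclei it was 0.06 (adjusted p 0.859). The level of Col3a1 in adipocyte-like nuclei could thus not be told from that of immune-like nuclei.

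The share of nuclei with a UMI of Col3a1, after each nucleus was thinned to 1000 UMIs, was 55.8% (49.4 to 62.0%) and 50.6% (47.9 to 53.4%) in FAP-like nuclei. It was 64.2% (57.9 to 70.2%) and 68.6% (66.6 to 70.5%) in mesothelial-like nuclei. In immune-like nuclei, with a median of 1632 and 1862 UMIs per nucleus before thinning against 1758 and 2086 in FAP-like nuclei, Col3a1 was seen in 5.49% (3.03 to 9.04%) and 8.15% (6.64 to 9.87%), and in adipocyte-like nuclei in 7.15% (6.05 to 8.37%) and 9.15% (8.48 to 9.85%). The intervals of immune-like and adipocyte-like nuclei overlap within each library, and those of FAP-like and mesothelial-like nuclei lie far above both.

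Type I collagen, the main fibril of connective tissue, is built from the chains of Col1a1 and Col1a2. Col1a2 was at 1201 and 658 CPM in FAP-like, 519 and 426 in mesothelial-like, 210 and 200 in mural-like, 50.1 and 97.4 in endothelial-like, 65.0 and 41.2 in immune-like and 33.7 and 15.5 in adipocyte-like nuclei. Col1a1 was at 695 and 303 CPM in FAP-like, 378 and 256 in mesothelial-like, 15 and 78.0 in mural-like, 53.9 and 53.5 in endothelial-like, 27.9 and 24.6 in immune-like and 20.4 and 9.74 in adipocyte-like nuclei. For both chains FAP-like nuclei were above mesothelial-like nuclei, and these above the other types, in each library. The log2 fold changes in FAP-like nuclei against the other types were 3.12 for Col1a2 (SE 0.16, adjusted p 3.1e-23) and 3.02 for Col1a1 (SE 0.17, adjusted p 2.1e-21), and those in mesothelial-like nuclei were 2.04 (SE 0.17, adjusted p 4.7e-15) and 2.37 (SE 0.17, adjusted p 9.4e-17), all higher in 2 of 2 libraries. In the direct contrast of FAP-like minus mesothelial-like nuclei Col1a2 differed by 0.90 (SE 0.23, adjusted p 0.00264), which is below the fold needed for a call, and Col1a1 by 0.55 (SE 0.23, adjusted p 0.117). In adipocyte-like nuclei both were called lower, Col1a2 with a log2 fold of -2.93 (SE 0.23, adjusted p 4.0e-16) and Col1a1 with -2.74 (SE 0.23, adjusted p 6.8e-15), each lower in 2 of 2 libraries.

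The balance between type I and type III chains differed between the main stromal types. The ratio of Col1a2 to Col3a1 UMIs was 0.894 and 0.696 in FAP-like nuclei and 0.357 and 0.250 in mesothelial-like nuclei, a comparison between types in which the length of the genes cancels. The ratio of Col1a1 to Col1a2, the partners of 1 trimer, was closer, at 0.579 and 0.460 in FAP-like and 0.730 and 0.601 in mesothelial-like nuclei. Per kilobase of merged exon, Col3a1 led in mesothelial-like nuclei with 141 and 165 CPM, and in FAP-like nuclei it reached 131 and 91.7 CPM.

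The type V chains Col5a1, Col5a2 and Col5a3 encode the minor fibrillar collagen that starts fibrils and limits their width. Col5a2 was at 411 and 498 CPM in FAP-like, 315 and 341 in mural-like, 140 and 233 in mesothelial-like, 53.9 and 81.4 in endothelial-like, 42.2 and 40.6 in adipocyte-like and 33.4 and 42.3 in immune-like nuclei. Col5a1 was at 370 and 285 CPM in FAP-like, 160 and 91.5 in mesothelial-like, 135 and 141 in mural-like, 91.3 and 55.7 in adipocyte-like, 65.5 and 48.7 in endothelial-like and 31.6 and 41.9 in immune-like nuclei. Col5a3 was at 218 and 207 CPM in FAP-like, 75.1 and 137 in mural-like, 91.7 and 66.1 in adipocyte-like, 73.2 and 51.1 in endothelial-like, 40.9 and 34.3 in immune-like and 27.0 and 34.0 in mesothelial-like nuclei. The 3 type V chains thus shared their upper place in FAP-like nuclei and parted in mesothelial-like nuclei, where Col5a3 was at the level of immune-like nuclei. In FAP-like nuclei the log2 fold changes were 2.29 for Col5a2 (SE 0.15, adjusted p 3.6e-19), 2.04 for Col5a1 (SE 0.16, adjusted p 1.0e-15) and 1.84 for Col5a3 (SE 0.17, adjusted p 2.4e-13), higher in 2 of 2 libraries. In mural-like nuclei Col5a2 was called with 1.5 (SE 0.20, adjusted p 7.7e-08).

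In mesothelial-like nuclei Col5a3 was called lower, with a log2 fold of -1.37 (SE 0.22, adjusted p 1.4e-06), lower in 2 of 2 libraries. Directly between FAP-like and mesothelial-like nuclei it differed by 2.68 (SE 0.25, adjusted p 1.0e-12). Adipocyte-like nuclei held Col5a3 above immune-like nuclei by 1.31 (SE 0.25, adjusted p 2.1e-05) and Col5a1 by 1.02 (SE 0.25, adjusted p 6.2e-04), so these were the fibrillar chains that adipocyte-like nuclei carried above that level in this contrast. The ratio of Col5a3 to Col5a2 UMIs was 2.17 and 1.63 in adipocyte-like nuclei, 0.531 and 0.415 in FAP-like and 0.193 and 0.146 in mesothelial-like nuclei. Col27a1, a long fibrillar chain best known from cartilage, was at 45.9 and 51.8 CPM in FAP-like and 60 and 61.0 CPM in mural-like nuclei and was called in both, with a log2 fold of 1.07 (SE 0.26, adjusted p 0.00143) and 1.21 (SE 0.39, adjusted p 0.0446). The call in FAP-like nuclei was lost without the replicate block (1.06, adjusted p 0.0501). The call in mural-like nuclei was lost under 6 alternatives, with folds of 1.08 to 1.22 and adjusted p of 0.0565 to 0.209. In FAP-like nuclei of replicate 2 alone the log2 fold of Col27a1 was 0.99.

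The basement membrane chains split into sets with different patterns. Col4a1 and Col4a2 build the type IV collagen found in nearly all basement membranes. Col4a1 was at 691 and 315 CPM in mural-like, 486 and 303 in FAP-like, 393 and 309 in endothelial-like, 298 and 222 in adipocyte-like, 193 and 116 in mesothelial-like and 100 and 91.8 in immune-like nuclei. Col4a2 was at 540 and 337 CPM in mural-like, 347 and 313 in endothelial-like, 271 and 285 in adipocyte-like, 238 and 220 in FAP-like, 110 and 113 in mesothelial-like and 81.7 and 105 in immune-like nuclei. Levels of both chains were thus spread over vessel, stromal and adipocyte-like nuclei, with mesothelial-like and immune-like nuclei below these in both libraries.

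Against the mean of the other types, neither Col4a1 nor Col4a2 was called higher in any type. For Col4a2 the fold was 0.89 (adjusted p 9.4e-04) in mural-like, 0.76 (adjusted p 1.9e-05) in adipocyte-like, 0.68 (adjusted p 0.00228) in endothelial-like and 0.12 (adjusted p 0.732) in FAP-like nuclei. For Col4a1 it was 0.80 (adjusted p 0.00321) in mural-like, 0.76 (adjusted p 1.5e-04) in FAP-like, 0.54 (adjusted p 0.0213) in endothelial-like and 0.36 (adjusted p 0.0454) in adipocyte-like nuclei. In direct contrasts among mural-like, endothelial-like and adipocyte-like nuclei neither chain was called, with adjusted p from 0.274 to 0.852. Each of these 3 types and FAP-like nuclei lay above immune-like nuclei for both chains by a log2 fold change of 1.23 (Col4a2 in FAP-like nuclei, adjusted p 1.1e-05) to 1.98 (Col4a1 in mural-like nuclei, adjusted p 7.6e-09). Mesothelial-like nuclei did not, with a difference of 0.59 (SE 0.23, adjusted p 0.0502) for Col4a1 and 0.22 (SE 0.23, adjusted p 0.592) for Col4a2. Col4a2 was called higher in adipocyte-like nuclei under 3 alternatives, with a log2 fold change of 1.04 without the filter on low counts, 1.17 with a mitochondrial limit of 5% and 1.48 with 4 subclusters left out that are named in the closing section. Col4a1 was called higher in FAP-like nuclei under 3 alternatives, with 1.09 at a mitochondrial limit of 5%, 1.03 with the highest doublet scores removed and 1.10 with those subclusters left out. With that mitochondrial limit and with those subclusters left out, mural-like nuclei were not in the fit. The mean of the other types then lacked the type with the highest values of both chains, so these folds are not the same comparison as the main ones.

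Per kilobase of merged exon, Col4a1 and Col4a2 were the leading chains of endothelial-like nuclei, at 52.7 and 41.4 CPM and at 48.3 and 43.6 CPM. Per kilobase of gene span, the length that applies if intronic reads were counted, Col4a1 led in replicate 1 with 3.45 CPM and Col3a1 in replicate 2 with 4.39 CPM. On that scale Col1a1 was the second in both libraries, with 3.21 and 3.18 CPM, and Col4a2 was at 2.53 and 2.28 CPM. In mural-like nuclei Col4a1 and Col4a2 reached 92.6 and 42.2 CPM and 75.3 and 46.9 CPM per kilobase of merged exon, and in adipocyte-like nuclei 40.0 and 29.7 CPM and 37.7 and 39.7 CPM. The UMI ratio of Col4a1 to Col4a2 was 2.04 and 1.38 in FAP-like, 1.10 and 0.779 in adipocyte-like and 1.13 and 0.987 in endothelial-like nuclei, so the partners of this trimer were not counted at a fixed ratio. The genes lie head to head on chromosome 8 with their annotated ends overlapping by 356 bases on opposite strands, and whether reads were counted by strand cannot be told from the deposited files.

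The other type IV chains, Col4a3 to Col4a6, build networks of more restricted basement membranes such as those of kidney, muscle and some epithelia. Col4a5 was at 236 and 317 CPM in mesothelial-like, 120 and 159 in mural-like, 84.4 and 117 in FAP-like, 24.2 and 34.7 in immune-like, 7.70 and 51.1 in endothelial-like and 12.5 and 12.8 in adipocyte-like nuclei. Col4a6 was at 236 and 243 CPM in mesothelial-like, 195 and 75.6 in mural-like, 29.3 and 45.4 in FAP-like, 20.4 and 45.9 in immune-like, 11.6 and 35.9 in endothelial-like and 16.1 and 17.4 in adipocyte-like nuclei. Col4a3 was at 45.6 and 79.0 CPM and Col4a4 at 54.1 and 67.9 CPM in mesothelial-like nuclei, and in the other types Col4a3 lay between 5.50 and 31.9 CPM and Col4a4 between 0 and 24.0 CPM over both libraries. Mesothelial-like nuclei thus held more of all 4 chains than any other type in both libraries.

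In mesothelial-like nuclei the log2 fold changes against the other types were 2.71 for Col4a6 (SE 0.18, adjusted p 1.7e-18), 2.61 for Col4a5 (SE 0.17, adjusted p 2.7e-19), 2.09 for Col4a4 (SE 0.26, adjusted p 1.9e-09) and 2.06 for Col4a3 (SE 0.26, adjusted p 3.2e-09), each higher in 2 of 2 libraries. Of the 6 basement membrane chains 4 were therefore called higher in these nuclei, while Col4a2 was called lower, with -1.09 (SE 0.18, adjusted p 2.9e-06). Mural-like nuclei were called for Col4a5 alone within the class, with 1.24 (SE 0.27, adjusted p 7.6e-04), a call lost without the replicate block (1.27, adjusted p 0.0576). A UMI of Col4a5 was seen after thinning in 18.7% (14.0 to 24.1%) and 23.9% (22.1 to 25.8%) of mesothelial-like nuclei and in 1.96% (0.640 to 4.52%) and 3.95% (2.90 to 5.23%) of immune-like nuclei, with median depths of 1840 and 1895 UMIs and of 1632 and 1862 UMIs. In adipocyte-like nuclei all 4 chains were called lower, with log2 fold changes from -2.47 for Col4a5 to -1.28 for Col4a4. The ratio of Col4a5 to Col4a6 UMIs was 1.00 and 1.30 in mesothelial-like nuclei and 2.88 and 2.58 in FAP-like nuclei.

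Genes of these trimers lie as neighbours on the chromosome, which the choice of members did not use. Col4a3 and Col4a4 overlap by 159 annotated bases on opposite strands of chromosome 1, Col4a5 and Col4a6 lie head to head on the X chromosome with 1281 bases between their annotated starts, and Col3a1 and Col5a2 lie 16.7 kb apart on chromosome 1. As a description over the 6 types, which share their libraries and so are not independent, the Pearson correlation of mean log levels was 0.93 for Col4a1 and Col4a2, 0.93 for Col4a5 and Col4a6, 0.69 for Col4a3 and Col4a4 and 0.86 for Col3a1 and Col5a2. Across the 2 sets it was -0.04 for Col4a1 and Col4a5. Over all 630 pairs of tested chains the median was 0.22, with quartiles of -0.16 and 0.56. Pairs on different chromosomes varied, with 0.92 for Col1a1 and Col1a2, 0.91 for Col5a1 and Col5a2 and 0.90 for Col1a1 and Col3a1. Col6a2 and Col6a3 were at 0.85, Col5a2 and Col5a3 at 0.53 and Col8a1 and Col8a2 at 0.21. On the same chromosome, Col6a4 and Col6a5 were at 0.71 and Col6a1 and Col18a1, 326 kb apart, at 0.57. Whether neighbours are more alike than other pairs was not tested.

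Promoter sequences are shown for Col4a5 and Col4a6, which moved together across the types and were called in mesothelial-like nuclei, and for Col3a1, the most counted chain in the sum of both libraries. In replicate 1 Col15a1 (4073 UMIs) and Col4a1 (2510) were counted more than Col3a1 (2202). RefSeq promoters were matched by symbol for 35 of the 44 chains, and Col5a2, Col14a1, Col1a1, Col4a3, Col22a1, Col26a1, Col12a1, Col9a3 and Col2a1 had no entry. The bases lie directly before the RefSeq start in the strand of the gene, 250 for Col3a1 and Col4a6 and 189 for Col4a5, from which the 61 bases nearest the start were left out because GENCODE places an exon there. In build GRCm38.p6 these are chr1:45311288-45311537 (plus strand) for Col3a1, chrX:141475169-141475357 (plus strand) for Col4a5 and chrX:141474077-141474326 (minus strand) for Col4a6. Capitals mark what was searched on both strands, the motif CCAAT, the motif GGGCGG and the motif TATAAA, which do not overlap each other here.
Col3a1: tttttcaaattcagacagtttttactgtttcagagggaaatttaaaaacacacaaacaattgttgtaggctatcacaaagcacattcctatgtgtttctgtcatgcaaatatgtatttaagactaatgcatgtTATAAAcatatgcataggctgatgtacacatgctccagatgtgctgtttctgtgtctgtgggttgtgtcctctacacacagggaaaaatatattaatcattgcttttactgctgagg
Col4a5: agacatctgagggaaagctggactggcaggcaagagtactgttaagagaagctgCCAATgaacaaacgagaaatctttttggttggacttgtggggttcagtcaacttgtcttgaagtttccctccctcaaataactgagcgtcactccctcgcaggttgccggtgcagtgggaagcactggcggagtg
Col4a6: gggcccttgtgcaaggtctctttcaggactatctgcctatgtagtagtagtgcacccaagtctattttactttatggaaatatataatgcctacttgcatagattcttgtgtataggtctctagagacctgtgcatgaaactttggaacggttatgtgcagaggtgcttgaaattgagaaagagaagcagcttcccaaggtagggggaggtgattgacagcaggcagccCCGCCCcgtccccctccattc
Within 250 bases before the start, CCAAT was found in 13 of the 35 chains, GGGCGG in 21 and TATAAA in 5. A chain counted where any of its listed promoters held the motif. Of all 32841 promoters listed, taken singly, 33.9% held CCAAT, 32.7% GGGCGG and 12.4% TATAAA. Chains with several promoters have more chances of a match, so the counts and these shares cannot be compared directly. Col3a1 held TATAAA at position -117, Col4a5 held CCAAT at -196 and GGGCGG at -30, the latter among the bases left out above, and Col4a6 held GGGCGG at -21 on the opposite strand, counted in bases from the start to the left end of the match. A match is a run of letters and says nothing of binding.

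The fibrillar and basement membrane classes were then weighed against each other by their summed UMIs, as a description without a test. The sums were not corrected for gene length, so a ratio of 1 does not mark equal amounts of chain RNA. Between types the lengths cancel only in part, because different chains lead a class in different types. The ratio of fibrillar to basement membrane UMIs was 5.0 and 4.07 in FAP-like nuclei, 3.12 and 3.00 in mesothelial-like, 1.17 and 1.12 in immune-like, 0.846 and 1.49 in mural-like, 0.636 and 0.573 in adipocyte-like and 0.551 and 0.757 in endothelial-like nuclei. By UMI counts, fibrillar chains thus outweighed basement membrane chains in FAP-like and mesothelial-like nuclei of both libraries. The reverse held in adipocyte-like and endothelial-like nuclei, and mural-like nuclei fell on different sides of 1 in the 2 libraries. With a mitochondrial limit of 5%, which left 13 mural-like nuclei in replicate 1, their ratio was 1.58 and 1.49, above 1 in both libraries. Immune-like nuclei were just above 1 in both libraries. As a share of the UMIs of both classes, fibrillar chains made up 83.3% (81.9 to 84.7%) and 80.3% (79.6 to 80.9%) in FAP-like nuclei, 38.9% (37.7 to 40.1%) and 36.4% (35.9 to 37.0%) in adipocyte-like nuclei, and 45.8% (38.6 to 53.2%) and 59.8% (56.6 to 63.0%) in mural-like nuclei.

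FAP-like and mesothelial-like nuclei differed in their basement membrane chains. Fibrillar chains made up 52.5% and 51.5% of all chain UMIs in FAP-like nuclei and 56.5% and 56.6% in mesothelial-like nuclei. Basement membrane chains made up 10.5% and 12.7% in FAP-like nuclei, mostly Col4a1 and Col4a2, and 18.1% and 18.8% in mesothelial-like nuclei, where Col4a5 and Col4a6 together held more UMIs than Col4a1 and Col4a2 in both libraries. In adipocyte-like nuclei basement membrane chains held 33.3% and 37.8%, fibrillar chains 21.2% and 21.6% and multiplexins 32.6% and 24.2% of the chain UMIs. With multiplexins counted as basement membrane chains, which they adjoin, the ratio fell in every type and was below 1 in immune-like nuclei too.

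**Figure D2:**
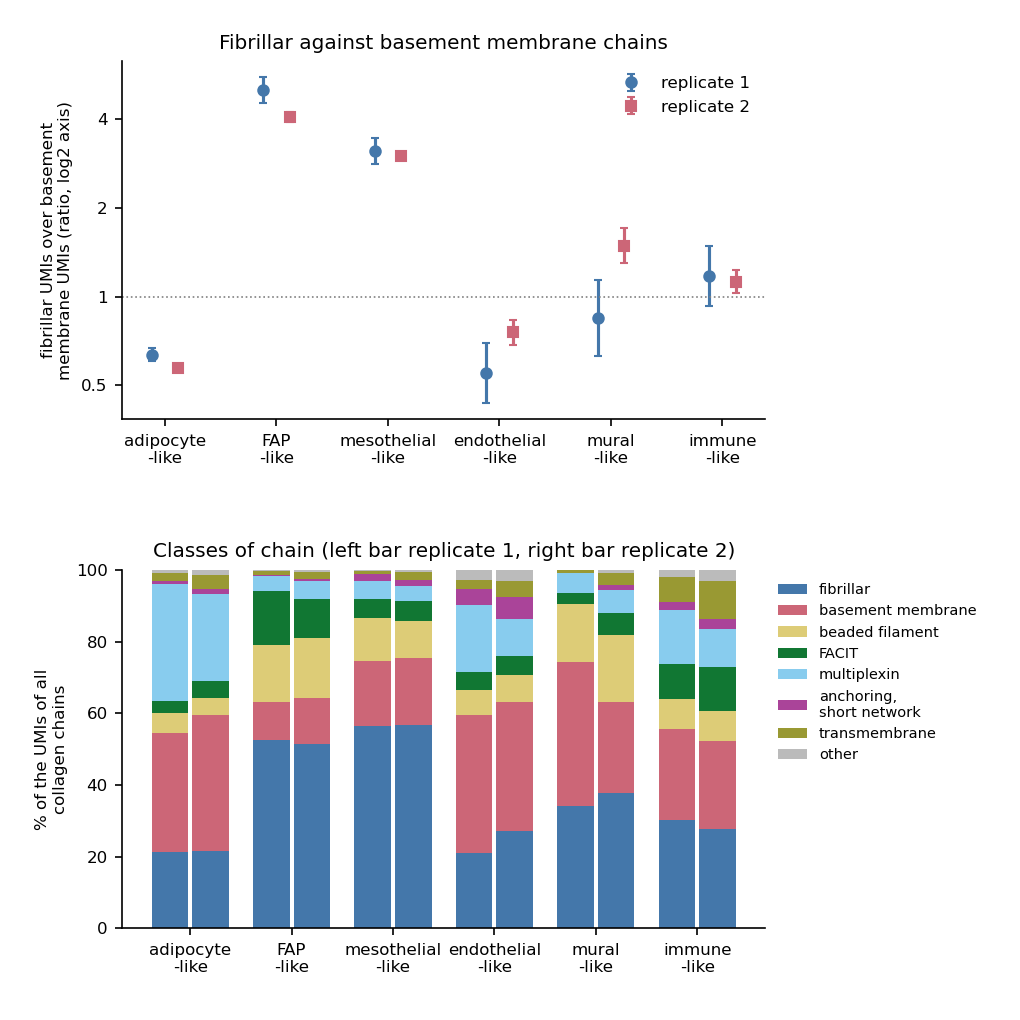
Above, UMIs of fibrillar chains divided by UMIs of basement membrane chains in each type of nucleus and library (log2 axis, points with exact 95% counting intervals, dotted line at 1, no correction for gene length). Below, the share of each class in the UMIs of all chains (%), and the ratio runs from 5.0 in FAP-like to 0.551 in endothelial-like nuclei of replicate 1.

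The beaded filament chains of type VI collagen were called higher in FAP-like nuclei for 5 of the 6 tested, in mesothelial-like nuclei for 4 and in mural-like nuclei for 3. Col6a1, Col6a2 and Col6a3 are the classic trimer of this collagen. Col6a1 was at 446 and 252 CPM in FAP-like, 314 and 202 in mesothelial-like, 210 and 166 in mural-like, 46.2 and 45.5 in endothelial-like, 41.1 and 13.6 in adipocyte-like and 27.9 and 24.2 in immune-like nuclei. Col6a2 was at 341 and 209 CPM in FAP-like, 122 and 131 in mesothelial-like, 105 and 134 in mural-like, 23.1 and 31.9 in endothelial-like, 20 and 11.3 in adipocyte-like and 11.1 and 14.1 in immune-like nuclei. Col6a3, whose chain carries the fragment known as endotrophin, was at 372 and 355 CPM in FAP-like, 315 and 344 in mural-like, 57.8 and 49.5 in endothelial-like, 50.7 and 60.1 in mesothelial-like, 26.8 and 27.7 in adipocyte-like and 27.9 and 22.0 in immune-like nuclei. All 3 chains were high in FAP-like and mural-like nuclei, and in mesothelial-like nuclei Col6a3 did not follow its partners.

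The log2 fold changes in FAP-like nuclei were 2.68 for Col6a2 (SE 0.17, adjusted p 5.2e-19), 2.65 for Col6a3 (SE 0.15, adjusted p 2.3e-21) and 2.23 for Col6a1 (SE 0.17, adjusted p 9.4e-17), and in mural-like nuclei 2.33 for Col6a3 (SE 0.20, adjusted p 1.1e-13), 1.35 for Col6a2 (SE 0.28, adjusted p 4.9e-04) and 1.15 for Col6a1 (SE 0.25, adjusted p 9.8e-04). In mesothelial-like nuclei Col6a1 was called with 1.77 (SE 0.17, adjusted p 9.2e-13) and Col6a2 with 1.47 (SE 0.18, adjusted p 4.3e-09), all of these higher in 2 of 2 libraries. Between FAP-like and mesothelial-like nuclei Col6a3 differed by 2.67 (SE 0.23, adjusted p 3.9e-14), Col6a2 by 1.01 (SE 0.23, adjusted p 7.4e-04) and Col6a1 by 0.39 (SE 0.22, adjusted p 0.324). The ratio of Col6a3 to Col6a1 UMIs made the same point, with 0.161 and 0.297 in mesothelial-like nuclei against 0.835 and 1.41 in FAP-like and 1.5 and 2.07 in mural-like nuclei. In replicate 1 alone the folds of Col6a1 and Col6a2 in mural-like nuclei, which number 23 there, were 0.75 and 0.77. The call of Col6a1 in mural-like nuclei was lost without the replicate block (0.99, adjusted p 0.250).

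Col6a5 and Col6a6 encode chains that can take the place of the Col6a3 chain. Col6a6 was at 132 and 118 CPM in FAP-like and 60.8 and 88.6 CPM in mesothelial-like nuclei and at 21.3 CPM or less in the other types. Its log2 fold change was 2.74 (SE 0.22, adjusted p 4.4e-15) in FAP-like and 1.93 (SE 0.23, adjusted p 1.4e-09) in mesothelial-like nuclei. Col6a5 was low, at 20.2 and 25.5 CPM in FAP-like and 27.0 and 21.9 CPM in mesothelial-like nuclei, and was called in both with a log2 fold change of 1.44, at an adjusted p of 0.00286 and 0.00236. Both calls of Col6a5 were lost with a mitochondrial limit of 5%, with log2 fold changes of 1.28 and 1.34 at an adjusted p of 0.0612 and 0.0784. At that limit mural-like nuclei were not among the types compared. Col6a4, the remaining chain of the class, was at 11.0 and 11.6 CPM in FAP-like and 0 and 24.4 CPM in mural-like nuclei, and it was called higher in no type. The levels of Col6a1 and Col6a2, which lie 83.9 kb apart on chromosome 10, correlated with r 0.99 over the 6 types, those of Col6a5 and Col6a6, 27.7 kb apart on chromosome 9, with 0.96, and those of Col6a1 and Col6a3 on different chromosomes with 0.80.

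Of the FACIT chains, Col14a1 set FAP-like nuclei apart more than any other chain tested, by its fold. Col14a1 binds the surface of fibrils and regulates their growth, and its gene spans 213 kb of chromosome 15. It was at 1102 and 516 CPM in FAP-like, 115 and 137 in mesothelial-like, 42.4 and 51.1 in endothelial-like, 31.6 and 42.7 in immune-like, 0 and 43.9 in mural-like and 18.1 and 15.4 in adipocyte-like nuclei. The value of 0 rests on 66617 UMIs, which allow up to 45.0 CPM (3 counts of the total). The log2 fold change was 4.12 (SE 0.17, adjusted p 9.9e-27) in FAP-like and 1.04 (SE 0.21, adjusted p 7.3e-05) in mesothelial-like nuclei, higher in 2 of 2 libraries on the log scale. The plain mean of the 5 other types, which FAP-like nuclei raise, was 239 and 134 CPM, so by CPM mesothelial-like nuclei were below it in replicate 1. The call in mesothelial-like nuclei was lost with a mitochondrial limit of 5% (0.79) and without the replicate block (1.06, adjusted p 0.0527). At that limit mural-like nuclei were not among the types compared. Between the types it was 2.56 (SE 0.25, adjusted p 4.3e-12) higher in FAP-like than in mesothelial-like nuclei and 4.26 (SE 0.29, adjusted p 3.8e-18) higher than in immune-like nuclei, and 58.8% of its UMIs were in FAP-like nuclei. A UMI of Col14a1 was seen after thinning in 49.8% (43.5 to 56.2%) and 30.2% (27.8 to 32.8%) of FAP-like nuclei against 3.53% (1.63 to 6.59%) and 3.95% (2.90 to 5.23%) of immune-like nuclei. Per kilobase of merged exon it reached 157 and 73.5 CPM in FAP-like nuclei, above Col3a1 in replicate 1 and below it in replicate 2. Per kilobase of gene span it was below Col3a1 in both, at 5.18 and 2.42 CPM against 29.8 and 20.9 CPM.

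Col16a1, a FACIT of many tissues, was at 55.0 and 36.7 CPM in FAP-like and 60.8 and 36.7 CPM in mesothelial-like nuclei, with a log2 fold of 1.69 (SE 0.29, adjusted p 9.2e-06) and 1.78 (SE 0.29, adjusted p 1.6e-06). Col12a1, a chain of dense connective tissue that binds fibrils, and Col19a1, a chain of basement membrane zones, were called in mural-like nuclei. Col12a1 was at 60 and 34.1 CPM there, with a log2 fold of 1.62 (SE 0.52, adjusted p 0.0432), and rested on 4 and 14 UMIs. Col19a1 was at 30 and 70.7 CPM, with 1.32 (SE 0.38, adjusted p 0.0198), and rested on 2 and 29 UMIs, with a log2 fold of 0.77 in replicate 1 alone. Both calls in mural-like nuclei therefore stood on few molecules. That of Col12a1 was lost under 6 alternatives, with folds of 1.46 to 1.62 and adjusted p of 0.0503 to 0.150. That of Col19a1 was lost under 4, with folds of 1.16 to 1.36 and adjusted p of 0.0561 to 0.142.

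The multiplexins Col15a1 and Col18a1 differed most in adipocyte-like nuclei. Col15a1 encodes a chondroitin sulfate proteoglycan collagen that links basement membranes to the fibrils beneath, and its gene lies at chr4:47207582-47313179 in GRCm39. It was at 567 and 327 CPM in adipocyte-like, 330 and 256 in FAP-like, 300 and 177 in endothelial-like, 120 and 156 in mural-like, 126 and 118 in immune-like and 120 and 100 in mesothelial-like nuclei. Adipocyte-like nuclei were above every other type in both libraries, and Col15a1 was the chain called higher there, with a log2 fold of 1.62 (SE 0.15, adjusted p 1.4e-13) in 2 of 2 libraries. The adipocyte-like nuclei held 86.1% of its UMIs.

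In direct contrasts Col15a1 was higher in adipocyte-like than in mesothelial-like nuclei by 2.19 (SE 0.22, adjusted p 3.0e-12), than in immune-like by 2.03 (SE 0.22, adjusted p 3.3e-11), than in mural-like by 1.82 (SE 0.27, adjusted p 2.3e-07) and than in endothelial-like nuclei by 1.23 (SE 0.22, adjusted p 9.2e-06). Against FAP-like nuclei the difference of 0.81 (SE 0.21, adjusted p 0.00124) was below the fold needed for a call. Mesothelial-like and mural-like nuclei did not differ detectably from immune-like nuclei, with -0.16 (adjusted p 0.726) and 0.21 (adjusted p 0.727). After thinning, 38.1% (36.0 to 40.3%) and 22.4% (21.4 to 23.4%) of adipocyte-like nuclei held a UMI of Col15a1 against 8.63% (5.49 to 12.8%) and 7.20% (5.79 to 8.84%) of immune-like nuclei, with median depths of 2488 and 4294 UMIs and of 1632 and 1862 UMIs. Per kilobase of merged exon Col15a1 led the chains of adipocyte-like nuclei, with 81.8 and 47.1 CPM, and per kilobase of gene span it led with 5.35 and 3.09 CPM. The 9 adipocyte markers summed to 2542 and 2111 CPM in immune-like and to 1974 and 1811 CPM in FAP-like nuclei, with all 9 present in both libraries and Adipor2 or Lipe at the top, and their part in the level of Col15a1 there was not tested.

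Col18a1, the source of endostatin and a chain of most basement membranes, ran the other way, with 127 and 97.1 CPM in mesothelial-like, 105 and 78.0 in mural-like, 88.6 and 40.7 in endothelial-like, 33.0 and 37.6 in FAP-like, 31.7 and 27.7 in adipocyte-like and 26.0 and 18.8 in immune-like nuclei. It was called higher in mesothelial-like nuclei, with a log2 fold of 1.42 (SE 0.19, adjusted p 3.2e-08), higher in 2 of 2 libraries. The ratio of Col15a1 to Col18a1 UMIs was 17.9 and 11.8 in adipocyte-like nuclei against 0.947 and 1.03 in mesothelial-like nuclei, and over the 6 types the levels of the pair correlated with r -0.42.

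Among the anchoring and short network chains, the type VIII partners Col8a1 and Col8a2, which form hexagonal lattices in vessel walls and under some epithelia, were high in different types. In endothelial-like nuclei Col8a1 was at 84.7 and 110 CPM, and in the other types at 39.0 CPM or less, with a log2 fold of 2.70 (SE 0.28, adjusted p 1.6e-11). Col8a2 was at 81.1 and 63.5 CPM in mesothelial-like nuclei and at 16.6 CPM or less in the other types, with 2.87 (SE 0.28, adjusted p 1.3e-12). Each was higher in 2 of 2 libraries, and the ratio of Col8a1 to Col8a2 UMIs was 22.0 and 8.12 in endothelial-like nuclei against 0.104 and 0.324 in mesothelial-like nuclei. Of the other chains, Col28a1, which resembles type VI collagen and is known from nerves, had 57.8 and 46.3 CPM in endothelial-like nuclei and 20 CPM or less elsewhere, with a log2 fold of 2.02 (SE 0.37, adjusted p 2.5e-05). Of the 4 transmembrane chains 3 were tested, and they were called higher in no type (0 by edgeR in each of the 6 types, and at an unadjusted p under 0.05 in mural-like nuclei 1).

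The direct contrast of FAP-like and mesothelial-like nuclei, the types with the most chains called, shows where their collagen differs. In FAP-like nuclei 9 chains were higher, against 5.02% of all genes tested, and 6 lower, against 6.33%. The 9 were Col5a3, Col6a3, Col14a1, Col5a1, Col15a1, Col4a1, Col5a2, Col6a2 and Col4a2, with log2 fold changes from 2.68 to 1.01. The 6 were Col4a6 and Col8a2 (each -2.63), Col4a3 (-1.80), Col4a4 (-1.56), Col18a1 (-1.55) and Col4a5 (-1.47). FAP-like nuclei thus held more type V chains, Col6a3 and Col14a1, and mesothelial-like nuclei more of the restricted type IV chains, Col18a1 and Col8a2, while the type I and III chains were not called between them. Of the FAP markers, Dcn was high in both types, and Dpp4 was at 563 and 717 CPM in mesothelial-like nuclei. The mesothelial cluster held 4 of 8 FAP markers above the other clusters by the naming rule. The part of this overlap in these values was not tested.

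**Figure D3:**
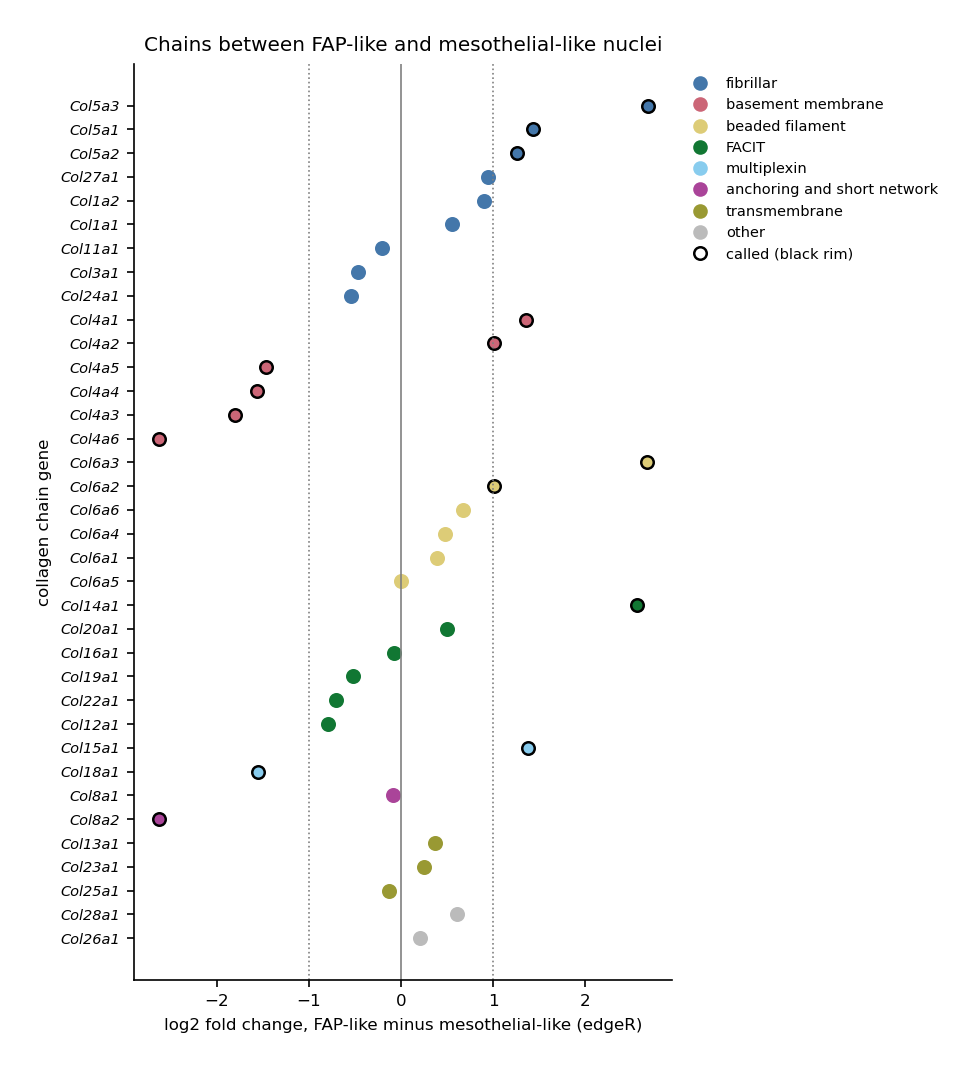
Log2 fold change between FAP-like and mesothelial-like nuclei (edgeR, right is higher in FAP-like) for the 36 tested chains, coloured by class, with a black rim where called and dotted lines at 1 and -1. The 9 chains called to the right are led by Col5a3 at 2.68 and Col6a3 at 2.67, and the 6 to the left by Col4a6 and Col8a2 at -2.63.

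Against immune-like nuclei, taken as the level of cells thought to make little collagen, 17 chains were called higher in FAP-like nuclei, against 8.64% of all genes tested, 18 in mesothelial-like, against 9.76%, and 16 in mural-like, against 6.12%. In endothelial-like nuclei it was 8, against 6.90%, and in adipocyte-like nuclei 5, against 10.8%. In FAP-like, mesothelial-like, endothelial-like and mural-like nuclei no chain was called lower than in immune-like nuclei (0 by edgeR in each, and 0, 0, 3 and 1 at an unadjusted p under 0.05), against 9.86%, 9.52%, 8.46% and 9.13% of all genes. In adipocyte-like nuclei 5 were lower, against 19.7%. The 8 FAP markers summed to 1126 and 1280 CPM in mural-like nuclei against 682 and 627 CPM in immune-like nuclei. The 9 mesothelial markers were at 330 and 388 CPM against 111 and 207 CPM. The 9 adipocyte markers were at 2477 and 2293 CPM against 2542 and 2111 CPM. Lum, Mfap5 and Pdgfra had no UMI in mural-like nuclei of replicate 1. The part of such RNA in the chains called in mural-like nuclei was not tested.

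The 5 chains that adipocyte-like nuclei held above immune-like nuclei were Col15a1 (2.03), Col4a2 (1.76), Col4a1 (1.61), Col5a3 (1.31) and Col5a1 (1.02), with the log2 fold in brackets. The count was near the share of all genes, and Col4a1 and Col4a2 were the only basement membrane chains among the 5. In endothelial-like nuclei the 8 were Col8a1 (3.13), Col4a1 (1.76), Col28a1 (1.75), Col4a2 (1.69), Col18a1 (1.31), Col6a2 (1.10), Col6a3 (1.08) and Col1a1 (1.02). The 8 FAP markers summed to 1190 and 1217 CPM in endothelial-like nuclei against 682 and 627 CPM in immune-like nuclei, led by Dcn. The 9 adipocyte markers summed to 3767 and 3577 CPM in endothelial-like nuclei, led by Adipor2, against 2542 and 2111 CPM in immune-like nuclei. All markers of both lists were present. Endothelial-like subcluster 1 (73 and 310 nuclei) held 8 of 9 adipocyte, 6 of 8 FAP and 5 of 10 mural markers against the rest of its type. The part of such RNA in the 8 chains was not tested.

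Adipocyte-like nuclei were set against each stromal and vessel type as well. Against FAP-like nuclei no chain was called higher (0 by edgeR, 0 at an unadjusted p under 0.05) and 15 were lower, against 10.2% and 15.3% of all genes tested. Col15a1 was higher than in FAP-like nuclei by less than the fold needed for a call, as given above. Against mesothelial-like nuclei 4 were higher (Col15a1, Col4a2, Col5a3 and Col4a1) and 17 lower, against 10.1% and 18.4%. Against endothelial-like nuclei 2 were higher (Col15a1 and Col27a1) and 7 lower, against 8.66% and 14.2%, and against mural-like nuclei 1 was higher (Col15a1) and 14 lower, against 8.94% and 9.76%. Adipocyte-like nuclei thus held less of most fibrillar and beaded filament chains than FAP-like nuclei. Over all classes, the FACIT chain Col14a1 (-5.31) and the fibrillar chains Col1a2 (-5.05) and Col1a1 (-4.80) differed most.

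Among the other pairs, 14 chains were higher and 2 lower (Col8a1 and Col28a1) in FAP-like than in endothelial-like nuclei, against 7.0% and 7.11% of all genes tested. In FAP-like against mural-like nuclei 8 were higher and 2 lower (Col19a1 -1.52 and Col4a6 -1.15), against 4.33% and 3.47%, while Col5a2 (0.66, SE 0.24, adjusted p 0.0763) and Col6a3 (0.27, SE 0.23, adjusted p 0.642) did not pass. For Col5a2 and Col6a3 alone among the type V and classic type VI chains is this stated, and mural-like nuclei numbered 23 in replicate 1. A difference between FAP-like and mural-like nuclei was thus not detected for these 2 chains, which does not show that their levels are alike. In mesothelial-like nuclei 17 were higher and 4 lower than in endothelial-like nuclei, against 8.04% and 6.28%, and 10 higher and 4 lower than in mural-like nuclei (Col6a3, Col5a3, Col4a2 and Col4a1), against 5.77% and 3.85%. In endothelial-like nuclei 2 were higher (Col28a1 and Col8a1) and 15 lower than in mural-like nuclei, against 5.35% and 3.85%.

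Within FAP-like nuclei the chains varied between 5 subclusters, drawn from the same nuclei and described without a test. Subcluster 1 (114 and 411 nuclei) held the interstitial progenitor markers, with Pi16 at 3577 and 1774 CPM. Subcluster 3 (46 and 225 nuclei) had Mfap4, Mdk, C1qtnf3 and Mgp at the top, Mgp being at 1015 and 919 CPM. Subcluster 2 (52 and 299 nuclei) had Pi16 at 181 and 57.0 CPM and held 1 of 5 preadipocyte markers against the rest of its type. Pparg was at 458 and 547 CPM in it, against 1090 CPM in all FAP-like nuclei of replicate 2. Subcluster 4 (17 and 231 nuclei) had the lowest median UMIs, and subcluster 5 (22 and 144 nuclei) held adipocyte markers with a mean doublet score of 0.266. Col14a1 was at 1802 and 995 CPM in subcluster 1, 767 and 688 in subcluster 3 and 85.2 and 88 in subcluster 2. Col15a1 ran the other way, at 59.3 and 52.0 CPM in subcluster 1, 435 and 248 in subcluster 3 and 703 and 554 in subcluster 2. The 2 chains were thus opposite in subclusters 1 and 2 of both libraries.

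Basement membrane chains followed Col15a1 in FAP-like subclusters in part. Col4a1 was at 352 and 246 CPM in subcluster 1, 692 and 517 in subcluster 2 and 818 and 317 in subcluster 3, and Col4a2 at 142 and 162, 351 and 329, and 373 and 184 CPM. Col4a5 was at 154 and 179 CPM in subcluster 1 and at 32.0 and 97.8 CPM in subcluster 2. Col3a1 was at 1581 and 1263 CPM in subcluster 1, 916 and 1074 in subcluster 2 and 2113 and 1192 in subcluster 3, Col5a3 at 111 and 214, 437 and 383, and 373 and 131 CPM, so that fibrillar chains were held by all 3. In subcluster 5, Col15a1 was at 715 and 345 CPM, and since adipocyte markers moved with it there, the part of adipocyte RNA in that value was not tested.

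**Figure D4:**
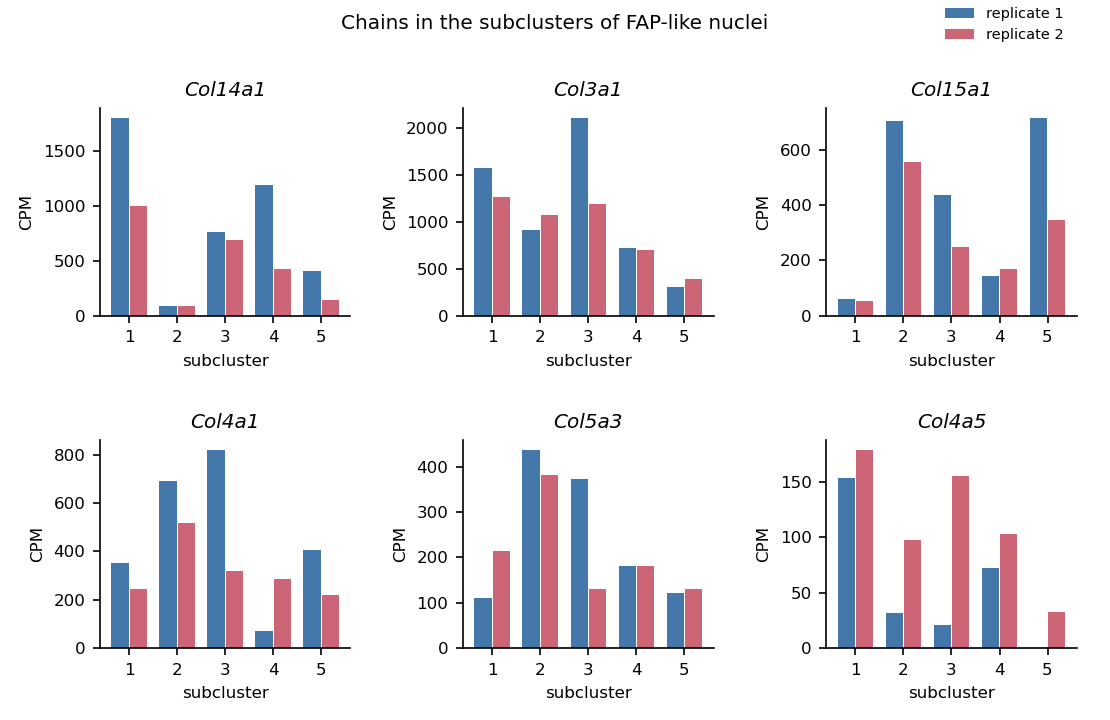
CPM of 6 collagen chain genes in the 5 subclusters of FAP-like nuclei, bars by library. Col14a1 is at 1802 and 995 CPM in subcluster 1 and at 85.2 and 88 CPM in subcluster 2, where Col15a1 is at 703 and 554 CPM against 59.3 and 52.0 CPM in subcluster 1.

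Other types held smaller subsets with their own chains, again without a test. In adipocyte-like subcluster 3 (44 and 185 nuclei), led by Ucp1 and Cidea, Col15a1 was at 59.2 and 55.8 CPM and Col27a1 at 128 and 222 CPM, against 612 and 351 CPM and 11.9 and 13.1 CPM in adipocyte-like subcluster 1 (1580 and 4619 nuclei). The nuclei of adipocytes with thermogenic leading genes thus held little Col15a1 in both libraries, while Col4a2 was at 219 and 251 CPM in them and at 271 and 294 CPM in subcluster 1. Adipocyte-like subcluster 2 (349 and 2114 nuclei), with 2463 of the 8891 adipocyte-like nuclei, had a median of 1739 UMIs against 5094 in subcluster 1. Against the rest of its type it held 4 of 8 FAP, 3 of 9 mesothelial, 4 of 9 blood endothelial and 3 of 8 macrophage markers, and Col15a1 was at 330 and 255 CPM and Col3a1 at 89.7 and 136 CPM in it. The call of Col15a1 in adipocyte-like nuclei was kept with this subcluster among the 4 left out. In mural-like subcluster 1 (15 and 104 nuclei), which held pericyte markers, Col4a1 was at 972 and 504 CPM and Col5a3 at 139 and 236 CPM, against 130 and 114 CPM and 0 and 19 CPM in mural-like subcluster 2 (3 and 37 nuclei), which held smooth muscle markers. Within its type, mural-like subcluster 1 also held 4 of 9 blood endothelial, 3 of 8 macrophage and 2 of 8 FAP markers. Mural-like subcluster 2 also held 2 of 8 FAP and 2 of 9 mesothelial markers. The part of such RNA in these values was not tested. Endothelial-like subcluster 5, with lymphatic markers, had 23 nuclei of replicate 2 and none of replicate 1, and Col3a1 was at 634 CPM, Col23a1 at 528 CPM, Col4a5 at 302 CPM and Col18a1 at 241 CPM in it, genes picked after their values were seen. Within its type it also held 3 of 9 mesothelial, 2 of 8 FAP and 2 of 8 macrophage markers, whose part in these values was not tested. The lymphatic cluster of the main clustering had 4 and 24 nuclei. In mesothelial-like subcluster 1 (217 and 1907 nuclei) Col3a1 was at 1661 and 2047 CPM and Col15a1 at 48.2 and 46.1 CPM, while subcluster 2 (28 and 209 nuclei), with adipocyte markers and a mean doublet score of 0.279, had Col3a1 at 544 and 618 CPM and Col15a1 at 428 and 276 CPM. Within its type, mesothelial-like subcluster 1 held 4 of 9 mesothelial, 3 of 8 FAP and 3 of 5 interstitial progenitor markers. Their part in these values was not tested.

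Genes that make, process and bind collagen were taken from 7 lists with 68 genes in all, of which 62 were tested in the same fit. In FAP-like nuclei 34 of them were called higher, against the 7.29% of all genes given above, and in mesothelial-like nuclei 20, against 9.17%. In mural-like nuclei it was 8, against 4.28%, in endothelial-like 6, against 6.39%, and in immune-like 5, against 11.2%. In adipocyte-like nuclei none was called higher (0 by edgeR, 0 at an unadjusted p under 0.05 and 0 by DESeq2), against 8.98%, and 37 were called lower, against 18.6%. In immune-like nuclei 26 were called lower, against 5.65%, in mesothelial-like 7, against 2.49%, in FAP-like 4, against 3.37%, in endothelial-like 4, against 2.15%, and in mural-like 2, against 2.11%.

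Proline and lysine residues of the new chain are hydroxylated in the endoplasmic reticulum, a step that stabilises the helix. Of the 12 hydroxylation genes tested, 4 were called higher in FAP-like nuclei, namely P3h3 (log2 fold change 1.51), Plod2 (1.47), P4ha2 (1.32) and Crtap (1.06), and 3 in mesothelial-like nuclei, P3h4 (3.14), P3h3 (1.5) and Plod2 (1.46). P3h4, a partner of the lysyl hydroxylase complex, was at 145 and 70.3 CPM in mesothelial-like nuclei. P3h2, a prolyl 3-hydroxylase linked with type IV collagen, was called in mural-like nuclei at 165 and 249 CPM (2.74, SE 0.24, adjusted p 1.7e-13) and in immune-like nuclei at 141 and 191 CPM (2.49, SE 0.18, adjusted p 2.9e-17). Of the 9 genes of folding, glycosylation and export, 4 were called in FAP-like nuclei (Fkbp10 1.77, Colgalt2 1.76, Creb3l1 1.44 and Sec24d 1.05), 2 in mesothelial-like nuclei (Fkbp10 1.96 and Creb3l1 1.13), 1 in endothelial-like (Colgalt2 1.61) and 1 in immune-like nuclei (Colgalt1 1.24).

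After secretion, proteinases remove the propeptides so that fibrils can form, and lysyl oxidases crosslink them. Of the 8 processing genes, 5 were called in FAP-like nuclei, led by Pcolce2, an enhancer of the C-proteinase, at 649 and 407 CPM with a log2 fold of 5.01 (SE 0.19, adjusted p 7.5e-29), and followed by Bmp1 (2.48), Adamts2 (1.94) and Pcolce (1.80). The proteinase Tll1 was called in endothelial-like nuclei at 351 and 228 CPM (3.18, SE 0.21, adjusted p 2.2e-18) and in mesothelial-like nuclei at 169 and 118 CPM (2.08, SE 0.21, adjusted p 7.2e-12), and Pcolce in mesothelial-like (1.73) and mural-like nuclei (1.57). Of the 5 crosslinking genes tested, 4 were called in FAP-like nuclei, Loxl2 (2.81), Loxl1 (2.69), Loxl3 (1.94) and Lox (1.68), and 2 in mesothelial-like nuclei, Loxl2 (1.56) and Loxl1 (1.17).

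Collagen is cleared by matrix metalloproteinases, which TIMP proteins inhibit. Of the 11 degradation genes tested, 9 were called in FAP-like nuclei, with Mmp2 at 233 and 223 CPM (4.82, SE 0.20, adjusted p 8.7e-27), Mmp14 (3.19), Fap (3.13) and Mmp3 (2.99) at the top, and 3 in mesothelial-like nuclei, Mmp3 (2.13), Mmp14 (1.71) and Timp2 (1.53). In mural-like nuclei Timp3 (2.73), Mrc2 (1.56) and Fap (1.47) were called, and in endothelial-like nuclei Timp3, at 874 and 532 CPM (2.17, SE 0.15, adjusted p 2.5e-17). In immune-like nuclei Mmp9, the gelatinase of leukocytes, was at 102 and 116 CPM (4.76, SE 0.28, adjusted p 1.0e-20).

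Cells sense collagen through integrins, discoidin domain receptors and other receptors, of which 9 were tested. Ddr2, the receptor of fibrillar collagen, was at 1234 and 1132 CPM in FAP-like nuclei (3.71, SE 0.15, adjusted p 1.0e-27), beside Itga11 (3.60) and Itga2 (1.24), while Ddr1, which also binds type IV collagen, was at 282 and 194 CPM in mesothelial-like nuclei (2.03, SE 0.17, adjusted p 4.1e-15), beside Adgrg1 (1.84) and Adgrg6 (1.83). Itga1, the integrin subunit that prefers type IV collagen, was called in mural-like nuclei at 676 and 383 CPM (3.20, SE 0.20, adjusted p 2.7e-19) and in endothelial-like nuclei at 320 and 283 CPM (2.54, SE 0.17, adjusted p 4.9e-18), the latter beside Adgrg1 (3.58) and Adgrg6 (1.16). In immune-like nuclei the inhibitory receptor Lair1 (4.75) and Adgrg6 (1.14) were called.

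Of the 8 genes whose proteins bind fibrils, 5 were called in FAP-like nuclei, with Tnxb at 1000 and 765 CPM (3.27, SE 0.14, adjusted p 6.2e-26), Postn (3.21), Thbs2 (3.11) and Ogn (2.83) at the top. In mesothelial-like nuclei 5 were called, among them Fmod, fibromodulin, at 133 and 72.6 CPM (4.00, SE 0.28, adjusted p 2.2e-17), Ogn (2.26), Prelp (1.77) and Bgn (1.11). In mural-like nuclei Postn was at 721 and 463 CPM (4.39, SE 0.20, adjusted p 6.5e-25), and Bgn was called there with 1.91. These small proteoglycans and matricellular proteins set the width and spacing of fibrils.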

How the data were processed

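Nuclei of visceral fat were sequenced in 2 libraries, and the authors deposited UMI counts per gene and called barcode, aligned to GRCm39 with CeleScope. Whether intronic or antisense reads were counted cannot be told from the files, and 148 symbols occur more than once and were kept apart by identifier. Counts per barcode without gene identity were not used. Members and lists were chosen with earlier results of these data known.

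Nuclei were clustered with scanpy 1.11.5 and leidenalg 0.10.2 in Python 3.11.15 from 1000 variable genes, without collagen chains and collagen pathway genes, by 30 principal components, Harmony, 20 neighbours and resolution 0.1. Types and the nuclei compared come from the same data. A cluster was named where at least 3 markers and a share of 0.5 of a list were higher by log2 1 and seen in 5% of nuclei, with no rival list of another type at 0.85 of the best share, a rule changed over 3 versions after clusters were seen. Clusters of macrophages and other leukocytes were joined as immune-like and taken as the level to compare with. Scrublet marked 2 nuclei as doublets, and none was removed.

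UMIs were summed per library and type and tested with edgeR 4.0.16 in R 4.3.3 (TMM, filterByExpr, quasi-likelihood F test), and DESeq2 1.42.0 served as an alternative. The script was tested on simulated counts. The library was kept as a block because differences between the libraries correlated between types in all 15 pairs of types (r 0.145 to 0.478, median 0.209, 13889 genes). Values are named for all chains called higher in a type and for the type I, III, IV, V, VI, XV and XVIII chains, and for at most 4 genes of each pathway list and type, by their fold. Alternatives covered the test, filter, block, resolution, features, mitochondrial limit, doublets, integration, subclusters, length, thinning and leaving out each library.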

Additional observations from a re-analysis of the deposited data

How the results depend on the processing

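Of the 40 calls of a chain as higher in a type, 31 were kept under every alternative with a test that held the type, with 1 in adipocyte-like, 12 in FAP-like, 13 in mesothelial-like, 2 in endothelial-like and 3 in mural-like nuclei (Col5a2, Col6a2 and Col6a3). The 9 lost under at least 1 alternative were Col27a1 and Col6a5 in FAP-like, Col6a5 and Col14a1 in mesothelial-like and Col6a1, Col4a5, Col27a1, Col19a1 and Col12a1 in mural-like nuclei. No log2 fold change of a called pair reversed (0 by edgeR and 0 by DESeq2). DESeq2 lost 0 calls, and the calls lost were 3 with no filtering of genes, 7 without the replicate block, 3 at resolution 0.3, 2 with collagen genes kept as features, 3 with a mitochondrial limit of 5%, 3 with the highest doublet scores removed, 0 without integration and 2 with mesothelial subclusters named by their markers.

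In adipocyte-like nuclei the count of 1 became 2 without the filter, with a mitochondrial limit of 5% and with 4 subclusters left out, and the added chain was Col4a2 each time. These subclusters, chosen after seeing the data, were FAP-like 5, adipocyte-like 2, mesothelial-like 2 and mural-like 3. Endothelial-like subcluster 1, which held adipocyte, FAP and mural markers, was kept. Adipocyte-like 2 was left out by its markers alone, while in the other types a limit on the doublet score applied too, which endothelial-like 1 did not meet. It has 73 of the 85 endothelial-like nuclei of replicate 1, so the calls in endothelial-like nuclei were not tested without it. In mural-like nuclei the count of 8 became 5 without the filter, 3 without the block, 5 at resolution 0.3 and 5 with the highest doublet scores removed. The cause was not tested in any type. Col4a1 and Col4a5 were also called in FAP-like nuclei with a mitochondrial limit of 5%, with doublet scores removed and with those subclusters left out. In mesothelial-like nuclei the count of 15 became 18 with subclusters named by markers and 20 with the 4 subclusters left out. Chains added there were Col12a1 under 4 alternatives (1.01 to 1.57), Col5a2 under 3 (1.03 to 1.27), Col22a1 under 2 (1.09 and 1.13) and Col24a1 (1.00) and Col11a1 (1.25) under 1 each. In mural-like nuclei DESeq2 added Col4a6 (1.24). In 1 library alone, which allows no test, 4 called pairs were under log2 1, Col27a1 in FAP-like (0.99) and Col6a1 (0.75), Col6a2 (0.77) and Col19a1 (0.77) in mural-like nuclei. With 1 library left out the counts ran from 1 to 2 in adipocyte-like, 13 to 21 in FAP-like, 15 to 19 in mesothelial-like, 2 to 5 in endothelial-like, 8 to 12 in mural-like and 1 to 5 in immune-like nuclei. The mitochondrial limit of 5% and the subclusters left out gave no test of mural-like nuclei, which fell under 20 in replicate 1. In both settings mural-like nuclei were also missing from the mean to which each other type was compared. Calls gained or lost there thus come from a changed comparison as well as changed nuclei, and these were not told apart. The median log2 fold change of all genes in adipocyte-like nuclei moved from -0.07 to -0.19 with DESeq2, and without the filter it was 0.48 in adipocyte-like, 0.22 in mesothelial-like, -0.33 in endothelial-like and -0.65 in mural-like nuclei.

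Of 60 alternative values of the log2 ratio of fibrillar to basement membrane UMIs, 47 moved by less than the libraries differ, 12 moved further and 1 changed sign where the main value was beyond that spread. The sign is that of UMI counts without correction for gene length. With multiplexins counted as basement membrane chains, which lowers it by construction, the mean over libraries went from -0.73 to -1.58 in adipocyte-like, 2.17 to 1.68 in FAP-like, 1.61 to 1.30 in mesothelial-like, -0.63 to -1.10 in endothelial-like and 0.20 to -0.40 in immune-like nuclei, the last with a change of sign. In mural-like nuclei, whose libraries lay on different sides of 0 (-0.24 and 0.57), the mean went from 0.17 to -0.09, so the sign of this ratio did not hold there, and without replicate 2 it was -0.24. With a mitochondrial limit of 5%, which left 13 mural-like nuclei in replicate 1, the log2 ratio was 0.66 and 0.57 in the 2 libraries. In mesothelial-like nuclei it was 1.53 with a mitochondrial limit of 5%, 1.69 with doublet scores removed and 1.73 both with subclusters named by markers and with subclusters left out. In immune-like nuclei it was 0.27 with collagen genes as features, 0.09 with a mitochondrial limit of 5% and 0.25 both with doublet scores removed and without integration. The cause was not tested. Without thinning, 87 of 104 shares of nuclei moved, since deeper nuclei show more genes. With 23 mural-like nuclei in replicate 1, a count of 0 there allows up to 45.0 CPM.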

Other observations

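The values rest on 2 animals, and all statements of significance hold for these libraries and types of nucleus. Clusters and tests come from the same nuclei, which the p values do not allow for, although collagen genes were kept out of the features. Replicate 1 was shallower, with a higher mitochondrial share, and mural-like and endothelial-like nuclei were few in it. Nuclear RNA gives levels of transcripts, not of collagen protein in the tissue. Free RNA and doublets add background, for which immune-like nuclei stood in without a direct measure. Age and depot were not compared.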
